A study of Mus musculus with 5 samples.

Results

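Autotaxin, the receptors of lysophosphatidic acid (LPA) and sphingosine 1-phosphate (S1P), the kinase that forms S1P and the phosphatases that degrade both lipids were followed in NIH/3T3 cells, an immortalised mouse embryonic fibroblast line, that carry an EGFP-tagged human histone H2A. The 10 genes were Enpp2, Lpar1, Lpar2, Lpar4, Lpar6, Ppap2a, Ppap2b, Sphk1, S1pr2 and S1pr3, taken by symbol from the 14454 genes listed in the deposited tables. They were selected on the difference in RPKM (reads scaled for transcript length and library depth) between the T120D lines and the wt line, so that difference is described here for the 10 genes and not tested. Genes were tested where their level averaged 1 RPKM or more in the 5 lines, and all 10 passed that filter. Enpp2 and Lpar4 passed it through the wt line, since their T120D means were under 1 RPKM.

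The T120D group held 4 lines, numbered 3, 6, 15 and 18, that expressed EGFP-H2A T120D, in which an aspartate replaces a threonine of the histone's C-terminal tail. The wt group held 1 line that expressed EGFP-H2A wild-type. All 5 lines had the tagged human histone integrated in addition to the mouse histone genes of the cells, and all were grown in DMEM with 10% fetal calf serum and 10 µg/ml gentamicin. Whether the lines were clones, pools or separate cultures is not stated in the labels, so p-values measure only the spread between these lines. That spread may in part be technical. The wt line had no replicate, and no spread between wt lines enters any value below.

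Autotaxin is a secreted lysophospholipase D that makes LPA from lysophosphatidylcholine outside the cell. LPA acts through G-protein-coupled receptors of an EDG-type family, which includes Lpar1 and Lpar2, and of a family related to purine receptors, which includes Lpar4 and Lpar6. S1P is made inside cells by sphingosine kinases, is exported, and acts through the EDG-type receptors S1pr1 to S1pr5. Lipid phosphate phosphatases, under Ppap2 symbols in these tables and now named Plpp, face the outside of the cell and remove the phosphate from LPA and S1P. Serum carries both lipids, and fibroblasts respond to them with contraction, migration and growth.

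Depth was estimated at 2520000 to 2720000 reads per line, from low RPKM values that are whole multiples of the value of 1 read. At that depth 1 RPKM of a transcript of 2000 bases stands for 5.04 to 5.44 reads. All 10 fibroblast markers, among them collagen I genes and Vim, were expressed, with a summed level of 2322 to 2686 RPKM in the T120D lines and 3083 in wt. The highest of these markers was S100a4, which reached 1363 RPKM and made up a large part of the sum in that line. Adipocyte markers were checked because adipocytes express much autotaxin: of 3 listed, Adipoq and Pparg were at 0 in every line and Fabp4 reached 0.572 RPKM, in wt only. The summed level was 2.88 to 6.55 RPKM in T120D and 3.17 in wt for 4 macrophage markers (Aif1 at 0 in all lines), and at most 0.657 RPKM in any line for the listed endothelial, epithelial and skeletal muscle markers, with Pecam1 and Tek at 0. For 7 neural markers it was 3.49 to 5.33 and 5.06 RPKM, with Mog and Sox10 at 0. The highest macrophage marker was Cd14, which reached 5.325 RPKM, and the highest neural marker was Map2, which reached 3.83. Of the listed markers, 1 macrophage and 2 neural markers averaged 1 RPKM or more.

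Over the 10 genes, the T120D mean lay below wt for 6 and above it for 4. On the log2(RPKM + 1) scale the T120D minus wt differences ran from -3.29 for Enpp2 to 0.90 for Ppap2a, and the middle 95% of all 10052 tested genes lay between -1.05 and 0.98. The wt line was outside the range of the 4 T120D lines for all 10 genes, which also held for 63.4% of all tested genes. In the limma fit across all tested genes 4 of the 10 were past an adjusted p of 0.05, 3 lower and 1 higher, where the share over all tested genes was 13.1% (7.65% higher and 5.45% lower, or 769 and 548 genes). With no filter on low values 434 genes were called higher and 514 lower. Nothing is read from these counts, because the same contrast chose the genes. The data are from bulk RNA, in which fewer cells that express a gene and less RNA per cell cannot be told apart.

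**Figure D1:**
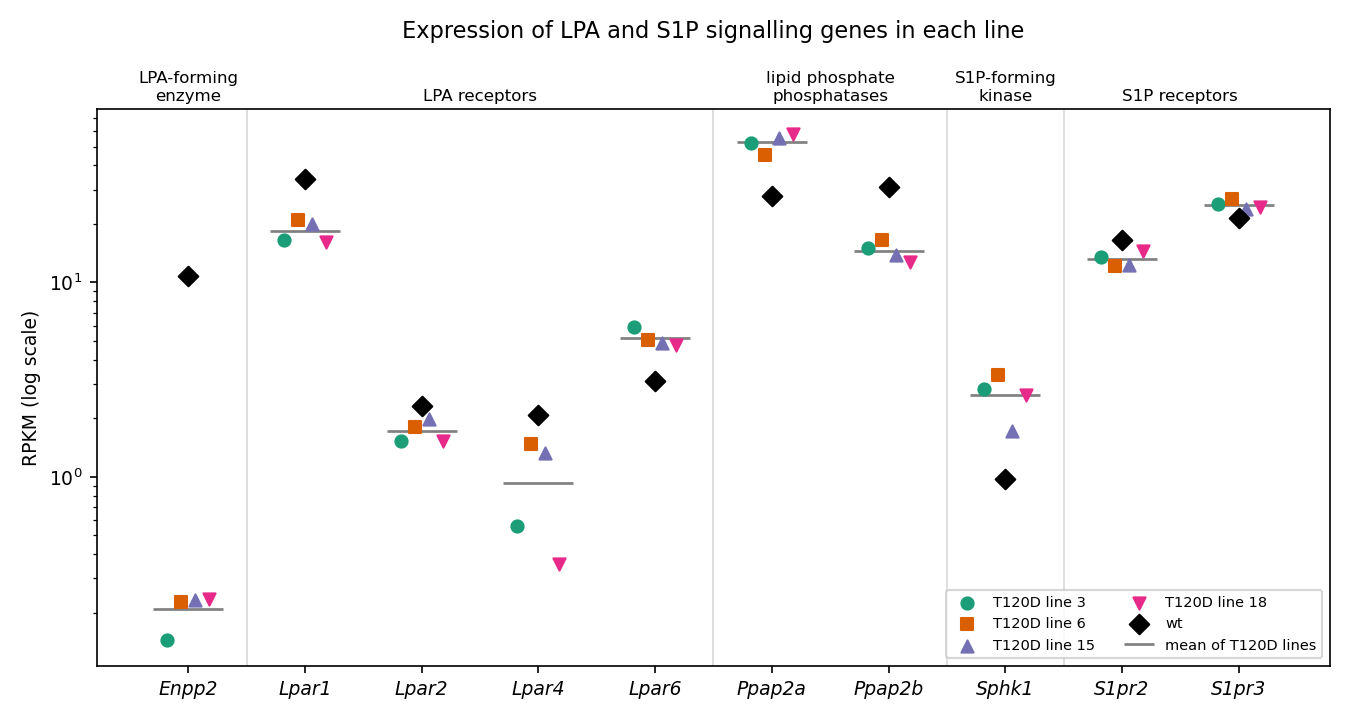
RPKM of the 10 genes (log scale) in each of the 4 T120D lines (coloured symbols) and in the wt line (black diamonds), ordered by role, with the T120D mean as a grey bar. Enpp2 is at 0.144 to 0.234 RPKM in the T120D lines and at 10.9 in wt, and the wt diamond lies outside the T120D symbols for every gene.

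Enpp2, the autotaxin gene, had the largest difference of the 10. Its level was 0.144, 0.228, 0.232 and 0.234 RPKM in T120D lines 3, 6, 15 and 18, and 10.9 in the wt line. All 4 T120D lines were near the detection limit and far below wt. In estimated reads these levels stood for 1.0, 1.7, 1.7 and 1.7 reads in the T120D lines and 83.2 in wt. The estimates use the median length of 4 annotated transcripts for every line, and why they are not whole numbers was not tested. The wt level was 51.85 times the T120D mean of 0.209 ± 0.044 RPKM (SD, n = 4). From the estimated reads the ratio was 52.7, and with so few reads in the T120D lines it is only loosely set. Among the tested genes Enpp2 had the 7th lowest difference. In the wt line it was more abundant than 67.6% of the tested genes, and in each T120D line than 0.2%. The filter, which Enpp2 passed through wt, leaves low genes out of this rank. Of the 14454 listed genes, 2168 to 2278 were at 0 in each T120D line.

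The listed relatives of autotaxin were low in every line. Enpp4, whose product acts on nucleotides, was at 1.75 to 2.43 RPKM in the T120D lines and 2.495 in wt and was not called (limma adjusted p = 0.751). Enpp3 was too low to be tested, at 0 RPKM in lines 3 and 15, 0.131 in line 6, 0.539 in line 18 and 1.17 in wt. Enpp1 was listed at 0 in the T120D lines and at 0.227 RPKM in wt, and Enpp5 at 0 in all 5 lines. Of the 22 tested genes of LPA production and breakdown other than the 10 genes, 3 rose and 1 fell by limma over all tested genes (18.2% called, against 13.1% of all), with a median log2 difference of 0.10 (-0.02 over all tested genes). Pla2g4a, which encodes the cytosolic phospholipase A2 that releases arachidonate and leaves a lysophospholipid, rose from 10.8 RPKM to 25.4 ± 2.19 (log2 difference 1.16, SE 0.14, limma adjusted p = 0.00125). Lipg, the endothelial lipase gene, was at 2.77 ± 0.862 RPKM against 0.484 (limma adjusted p = 0.0227), and Lpcat3, a lysophospholipid acyltransferase gene, at 10.6 ± 0.903 against 6.60 (adjusted p = 0.0405). Pla2g15, a lysosomal phospholipase gene, fell from 12.5 to 7.82 ± 0.077 RPKM (limma adjusted p = 0.0297). With no filter on low values the calls of Lipg and Lpcat3 ended (limma adjusted p = 0.0911 and 0.0715). The call of Pla2g15 ended without line 3, 15 or 18 (limma adjusted p = 0.0597, 0.0574 and 0.0523), as did that of Lpcat3 (0.0811, 0.0804 and 0.0773), which also ended without the intensity trend (0.0681).

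Lpar1 was the most abundant LPA receptor gene in every line. Its level was 16.6, 20.9, 20.1 and 16.2 RPKM in T120D lines 3, 6, 15 and 18, and 33.95 in wt. Each T120D line was lower than wt, lines 3 and 18 the most. The T120D mean of 18.4 ± 2.41 RPKM (SD, n = 4) was 0.543 times the wt level, a log2 difference of -0.85 (SD 0.18).

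Lpar6, a receptor gene of the purine-receptor-like family, differed in the opposite direction. It was at 5.93, 5.09, 4.87 and 4.77 RPKM in lines 3, 6, 15 and 18, and at 3.12 in wt. All T120D lines were above wt, 1.53 to 1.90 times its level. These levels stood for an estimated 30.9 to 36.9 reads in the T120D lines and 20.9 in wt. In the GRCm38 annotation Lpar6 lies within Rb1 on the opposite strand, and the sources used here do not say whether strand was used in counting. Rb1, the retinoblastoma gene, was at 1.82 ± 0.439 RPKM against 1.98 (log2 difference -0.09, limma adjusted p = 0.861).

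Lpar2 and Lpar4 were the least abundant LPA receptor genes. Lpar2, an EDG-type receptor gene, was at 1.53, 1.81, 1.98 and 1.53 RPKM in lines 3, 6, 15 and 18, and at 2.32 in wt. The T120D lines reached 0.659 to 0.854 of the wt level, with lines 6 and 15 nearest to it. These levels stood for an estimated 21.9 to 30.0 reads in the T120D lines and 35.9 in wt. The coefficient of variation over the T120D lines, 13.0%, was below the 19.7% from counting, so nothing is read from the order of these lines. Lpar4, a purine-receptor-like LPA receptor gene on chromosome X, was at 0.560, 1.48, 1.33 and 0.358 RPKM against 2.08 in wt. Lines 3 and 18 were low and lines 6 and 15 lay closer to wt, with 6.0, 17.0, 15.0 and 4.0 estimated reads in lines 3, 6, 15 and 18 and 23.9 in wt. The highest T120D line had 4.13 times the lowest. The coefficient of variation over the T120D lines was 59.6%, against 30.9% from counting alone, the largest excess over counting among the 10 genes. The 20 nearest tested genes on chromosome X did not show this split, with medians against wt of -0.09, -0.13, -0.10 and -0.02 in lines 3, 6, 15 and 18.

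Summed per length, the 4 LPA receptor genes stood at 24.6, 29.3, 28.3 and 22.8 RPKM in T120D lines 3, 6, 15 and 18, and at 41.5 in wt. Every T120D line had a lower sum than wt. The order Lpar1, Lpar6, Lpar2, Lpar4 was the same in all 5 lines (Lpar3 and Lpar5 were not listed). The last pair lay close together in line 6, at 1.81 and 1.48 RPKM, and in wt, at 2.32 and 2.08, and that gap was not tested. Lpar1 made up 67.5% to 71.4% of the sum in the T120D lines and 81.9% in wt. Lpar6 made up 17.2% to 24.1% and 7.53%. Lpar1 was thus 2.80 to 4.13 times as abundant as Lpar6 in the T120D lines and 10.9 times in wt.

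**Figure D2:**
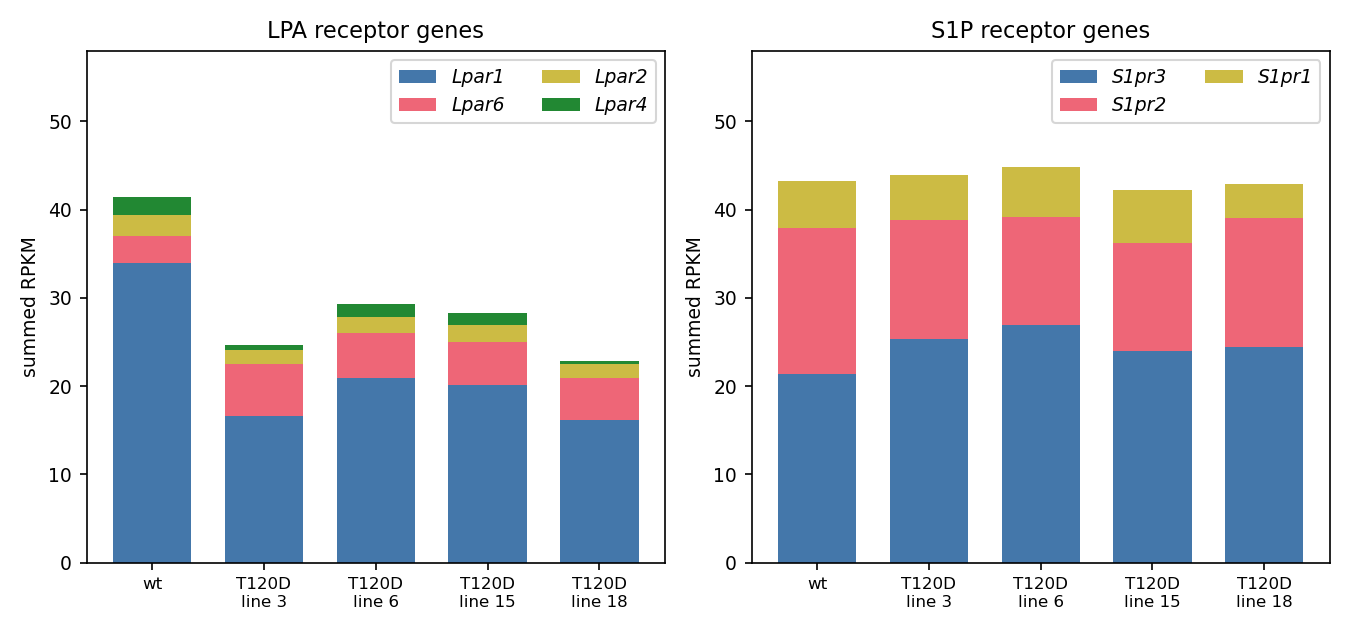
Stacked RPKM of the LPA receptor genes (left) and the S1P receptor genes (right) in the wt line and the 4 T120D lines, 1 bar per line. The LPA receptor bars sum to 22.8 to 29.3 RPKM in T120D and 41.5 in wt, and the S1P receptor bars to 42.2 to 44.9 and 43.3.

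The lipid phosphate phosphatase genes Ppap2a and Ppap2b, whose products act on LPA and S1P at the cell surface, differed from wt in opposite directions. Ppap2a was at 52.3, 45.5, 55.2 and 57.8 RPKM in lines 3, 6, 15 and 18, and at 27.7 in wt. All T120D lines were well above wt, line 6 the least. Ppap2b was at 15.01, 16.5, 13.8 and 12.7 RPKM, and at 30.85 in wt. All T120D lines were far below wt, here too with line 6 the nearest. The T120D mean was 1.90 times the wt level for Ppap2a (52.7 ± 5.32 RPKM, SD, n = 4) and 0.470 times for Ppap2b (14.5 ± 1.61 RPKM). Ppap2a was thus 2.76 to 4.55 times as abundant as Ppap2b in the T120D lines and 0.899 times in wt, while the sum of both was 61.9 to 70.6 RPKM against 58.6.

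Ppap2a overlaps Skiv2l2, an RNA helicase gene, on the opposite strand in the GRCm38 annotation. Skiv2l2 was at 6.00 ± 0.459 RPKM (SD, n = 4) against 3.66, a log2 difference of 0.58 that was not called (limma adjusted p = 0.0681). Of the 6 other tested genes listed with these phosphatases, Ppap2c and the lipin genes among them, 0 were called by limma. The share over all tested genes was 13.1%. At an unadjusted limma p under 0.05, 1 of the 6 was lower, as were 1345 of all 10052 tested genes. The list's median was -0.12.

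Sphk1, the sphingosine kinase gene that responds to growth factors, was low in every line. It was at 2.825, 3.34, 1.73 and 2.63 RPKM in lines 3, 6, 15 and 18, and at 0.975 in wt. All T120D lines were above wt, line 15 the least. The levels stood for an estimated 13.1, 16.6, 8.4 and 12.7 reads in the T120D lines and 4.9 in wt. The ratio of T120D to wt was 2.68 from these reads, and with so few reads in wt it is only loosely set. Sphk2, the gene of the other sphingosine kinase, was more abundant in every line, and Sphk1 made up 21.9% to 42.1% of the summed RPKM of both in the T120D lines and 15.05% in wt.

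Other genes of S1P and ceramide metabolism were mostly not called. Of 25 tested genes, 4 rose and 1 fell by limma (5 of 25 called, against 13.1% of all tested genes), with a median log2 difference of 0.04. Sgms2 and Sgms1, which encode sphingomyelin synthases, rose to 7.62 ± 1.26 and 14.6 ± 0.864 RPKM (SD, n = 4) from 3.10 and 8.99 (limma adjusted p = 0.0125 and 0.0213). Degs1, which encodes the desaturase that forms ceramide, and Ugcg, which encodes glucosylceramide synthase, had log2 differences of 0.52 and 0.47 (limma adjusted p = 0.00786 and 0.046). Sgpp1, the gene of an S1P phosphatase, fell from 22.3 to 15.5 ± 1.06 RPKM (limma adjusted p = 0.0475). Sgpl1, encoding the S1P lyase that degrades S1P irreversibly, was at 21.6 to 22.8 RPKM in T120D and 21.6 in wt. The call of Sgpp1 ended without any 1 of the T120D lines (limma adjusted p = 0.0533 to 0.0908), as did that of Ugcg (0.0624 to 0.086). Without the intensity trend only 1 gene of this list was called, with Degs1 at 0.0684 and Sgms1 at 0.0501, and with no filter Sgms2 was at 0.0625.

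S1pr3 and S1pr2 were the main S1P receptor genes. S1pr3 was at 25.3, 26.9, 23.96 and 24.5 RPKM in lines 3, 6, 15 and 18, and at 21.4 in wt. The T120D lines were slightly above wt, at 1.12 to 1.26 times its level. S1pr2, the gene of another EDG-type S1P receptor, was at 13.5, 12.2, 12.3 and 14.6 RPKM, and at 16.5 in wt. The T120D lines were slightly below wt, at 0.737 to 0.880 of its level. S1pr1 was at 5.09, 5.73, 5.95 and 3.88 RPKM against 5.33, so the wt line lay within the T120D range (log2 difference -0.05, SE 0.23, limma adjusted p = 0.91).

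S1pr3, S1pr2 and S1pr1 kept this order of RPKM in all 5 lines, and S1pr4 and S1pr5 were not listed. The summed level of the 3 genes was 43.9, 44.9, 42.2 and 42.9 RPKM in lines 3, 6, 15 and 18, and 43.3 in wt, within the T120D range. S1pr3 made up 56.8% to 60.03% of it in T120D and 49.5% in wt, and S1pr2 27.2% to 33.9% and 38.2%. Against the LPA receptors, the S1P receptor sum was 1.49 to 1.88 times as high in the T120D lines and 1.04 times in wt.

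**Figure D3:**
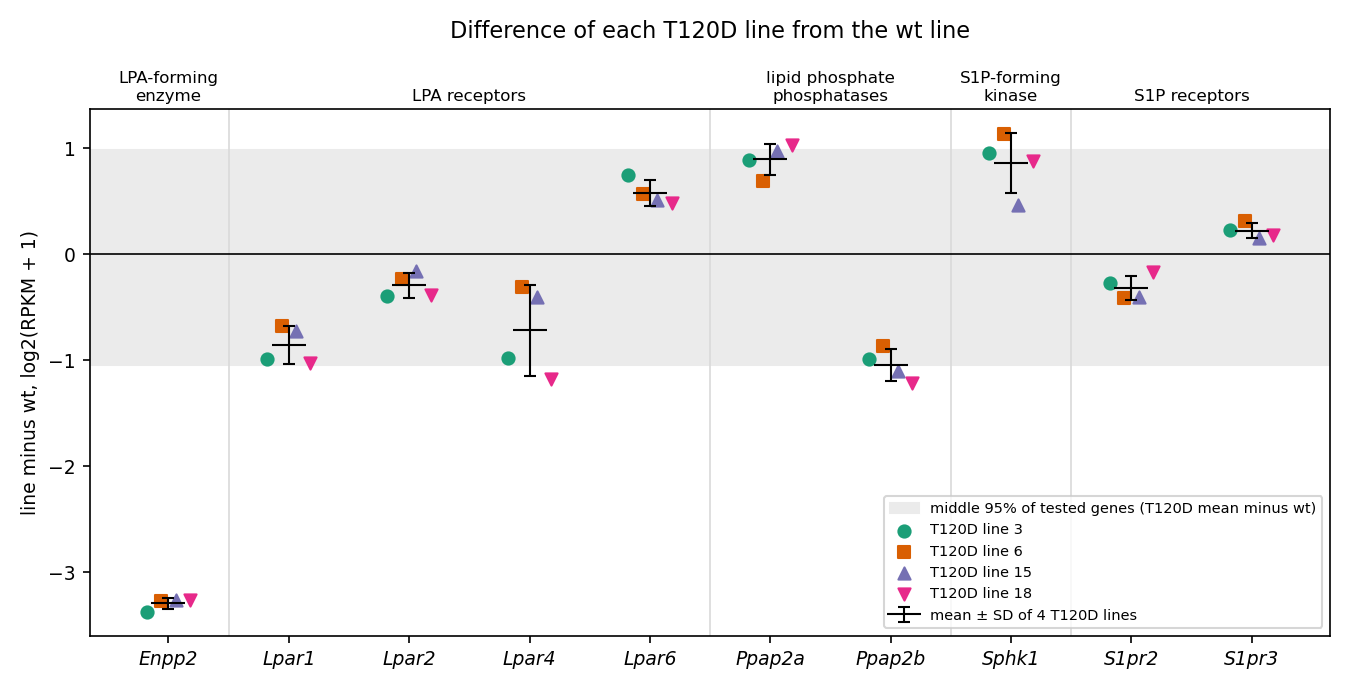
Difference of each T120D line from the wt line in log2(RPKM + 1) for the 10 genes, with the mean ± SD of the 4 lines (black) and the middle 95% of all tested genes, -1.05 to 0.98 (grey band). Enpp2 lies at -3.29, far below the band, and for Lpar4 lines 6 and 15 lie closer to 0 than lines 3 and 18.

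Spread among the T120D lines does not use the contrast with wt. For S1pr3 the coefficient of variation over the 4 lines was 5.2%, against 5.8% from counting, and for S1pr2 8.5% against 6.7%. It was 13.0% against 7.8% for Lpar1, 10.1% against 7.1% for Ppap2a and 11.1% against 9.1% for Ppap2b. For Lpar2, Lpar6, Sphk1 and Enpp2, which had fewer reads, the spread was below the counting value, at 13.0%, 10.2%, 25.6% and 20.9% in turn. Lpar4, also a gene of few reads, went the other way, at 59.6% against 30.9%. Line 6 was the highest T120D line for Lpar1, Lpar4, Ppap2b, Sphk1 and S1pr3 and the lowest for Ppap2a and S1pr2.

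Promoter sequences are shown for the 2 higher and the 2 lower genes with the largest differences among those with an entry in the RefSeq table used. Each is the 250 bases before the most upstream RefSeq start (build GRCm38.p6), read 5′ to 3′ on the gene's strand. Capitals mark matches on either strand to the AP-1 motif TGANTCA, the TEAD motif GGAATG, the Sp1 motif GGGCGG, the TATA motif TATAAA or the CArG box of serum response factor. Sphk1 at chr11:116530850-116531099, plus strand, and Lpar6 at chr14:73237641-73237890, plus strand, were the higher genes. Ppap2b at chr4:105157097-105157346, plus strand, and Lpar1 at chr4:58553492-58553741, minus strand, were the lower genes.
Sphk1: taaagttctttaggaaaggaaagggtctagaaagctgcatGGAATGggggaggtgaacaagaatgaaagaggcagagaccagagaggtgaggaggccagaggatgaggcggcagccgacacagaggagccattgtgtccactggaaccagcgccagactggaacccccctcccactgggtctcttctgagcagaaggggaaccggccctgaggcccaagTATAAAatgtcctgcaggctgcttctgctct
Lpar6: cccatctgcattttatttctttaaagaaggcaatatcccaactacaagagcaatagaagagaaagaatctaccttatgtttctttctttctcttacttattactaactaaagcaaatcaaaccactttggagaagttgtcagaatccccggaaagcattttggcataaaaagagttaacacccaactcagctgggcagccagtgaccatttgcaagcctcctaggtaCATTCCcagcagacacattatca
Ppap2b: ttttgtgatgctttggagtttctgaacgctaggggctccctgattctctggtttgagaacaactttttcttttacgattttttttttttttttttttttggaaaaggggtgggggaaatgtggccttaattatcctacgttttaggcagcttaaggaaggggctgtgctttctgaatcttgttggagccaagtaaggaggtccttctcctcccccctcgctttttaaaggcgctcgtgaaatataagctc
Lpar1: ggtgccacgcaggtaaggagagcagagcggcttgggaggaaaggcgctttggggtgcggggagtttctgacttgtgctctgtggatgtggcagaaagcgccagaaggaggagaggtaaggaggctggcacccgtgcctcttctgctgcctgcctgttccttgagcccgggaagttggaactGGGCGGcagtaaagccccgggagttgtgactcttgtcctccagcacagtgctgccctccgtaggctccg

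The Sphk1 window held a TATA motif 31 to 26 bases before the start and a TEAD motif 210 to 205 bases before it. The Lpar6 window held a TEAD motif 23 to 18 bases before the start, and the Lpar1 window an Sp1 motif 69 to 64 bases before it. The Ppap2b window held none of the 5 motifs. Over 27025 such windows of all genes, 12.6% held the TEAD motif, 13.0% the TATA motif, 33.0% the Sp1 motif, 6.9% the AP-1 motif and 1.4% the CArG box. GC content was 62.0% for Lpar1, 55.6% for Sphk1, 42.4% for Ppap2b and 39.2% for Lpar6, against a median of 52.0% over all windows. These matches describe the letters of the windows and say nothing of binding.

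Genes that neighbour Enpp2 on chromosome 15 differed less from wt than Enpp2. Enpp2 was selected on this contrast and had the 7th lowest difference, so almost any gene would differ less, and nothing is read from that. In gene order the 3 nearest tested genes on one side were Tnfrsf11b, Ext1 and Med30, and on the other Taf2, Dscc1 and Mrpl13. Tnfrsf11b, which encodes the decoy receptor osteoprotegerin, measured 0.842, 0.917, 0.533 and 0.269 RPKM in lines 3, 6, 15 and 18, and 2.86 in wt (log2 difference -1.25, SE 0.32, limma adjusted p = 0.0347). All T120D lines were below wt, at levels of few reads. Their mean of 0.640 RPKM is under the filter, which Tnfrsf11b passed through the wt line, so its call depends on wt being high. The other 5 had log2 differences of -0.29 to 0.29 and were not called (limma adjusted p = 0.297 to 0.741). Over the 20 nearest tested genes the median difference was 0.004, and 2 were called, both lower (10.0%, against 13.1% of all tested genes). The call of Tnfrsf11b ended when low genes were kept in (limma adjusted p = 0.0742), with a pseudocount of 0.1 (0.102) and without line 3, 15 or 18 (0.0514, 0.0576 and 0.0523).

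**Figure D4:**
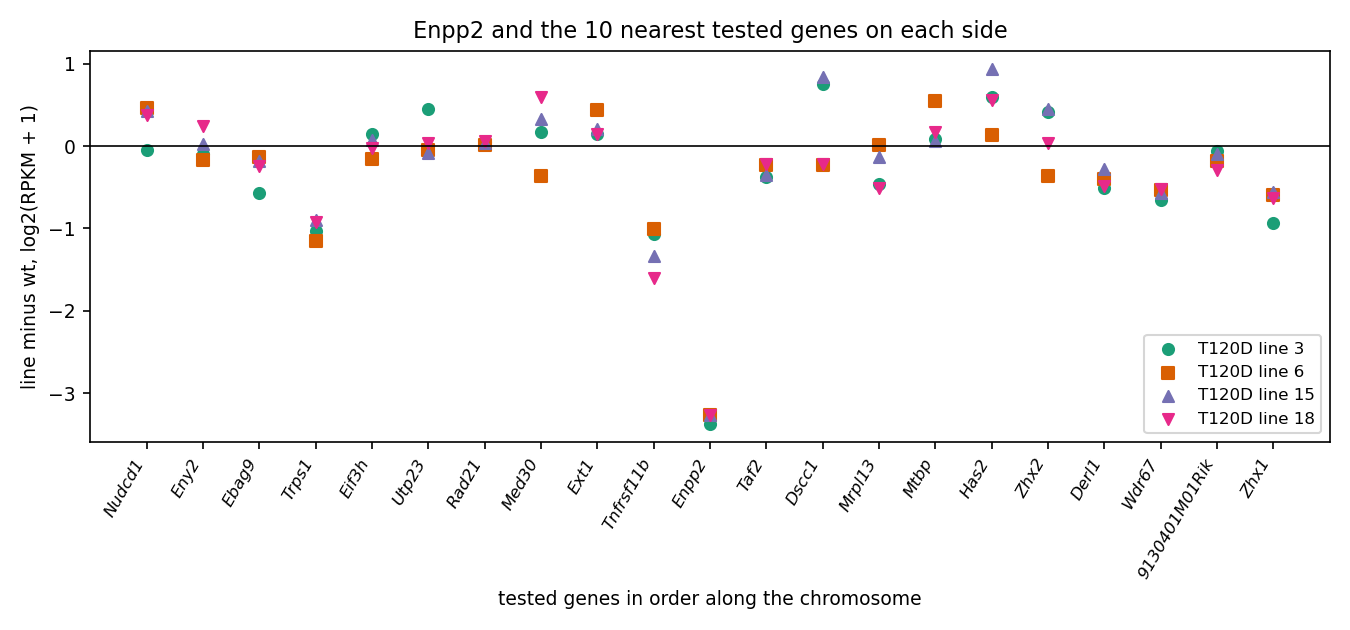
Difference of each T120D line from wt in log2(RPKM + 1) for Enpp2 and the 10 nearest tested genes on each side, in order along chromosome 15. Enpp2 lies at -3.26 to -3.37 in the 4 lines, and the 20 neighbours have a median of 0.004, with Tnfrsf11b and Trps1 the called genes.

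The profile of Enpp2 over the 5 lines was compared with that of every tested gene, each centred on its mean in log2(RPKM + 1), by Euclidean distance. The nearest genes were Sned1 (distance 0.34), Lrrc17 (0.45), Ptgfr (0.495), Mterfd2 (0.64) and Maf (0.645), all lower in the T120D lines than in wt. Mterfd2 was not low in T120D, with a mean of 7.34 RPKM against 125 in wt. For Ptgfr, the prostaglandin F receptor gene, the T120D mean was 1.20 ± 0.157 RPKM (SD, n = 4) and wt was at 13.96. Maf, a transcription factor gene, was at 0.159 ± 0.111 against 6.34. Like Enpp2, Maf and Lrrc17 (T120D mean 0.173 RPKM) passed the filter through the wt line, so they were compared only because wt was high. For Ppap2a, the highest of the 10 differences, the nearest genes were Taf4b, Ddx39, Dusp14, Tmtc3 and Slc35a4, at distances of 0.076 to 0.11. The distances rest on 5 lines and mostly reflect the gap to wt.

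Genes known to respond to LPA or S1P in fibroblasts were mostly higher. Of 37 tested, 21 rose and 2 fell by limma (62.2% called, against 13.1% of all tested genes), with a median log2 difference of 0.72. By line the list's median against wt was 0.77, 0.76, 0.94 and 0.90 for lines 3, 6, 15 and 18. This list was chosen with earlier results of these data known, so its count is not independent evidence of a direction. Ctgf, Ptgs2, Thbs1, Hbegf and Cyr61 were among the genes with the highest differences, from 2.38 for Cyr61 to 3.635 for Ctgf. Ctgf, which encodes connective tissue growth factor, measured 214, 169, 195 and 191 RPKM in lines 3, 6, 15 and 18, and 14.5 in wt (limma adjusted p = 2.81e-06). All T120D lines were far above wt. The 2 genes that fell were Hif1a, the hypoxia factor gene, at 19.8 ± 0.834 RPKM against 33.3 (limma adjusted p = 0.00711), and Postn, a matrix protein gene, at 1.04 ± 0.602 against 4.25 (adjusted p = 0.0345). These genes also respond to many other signals, and a link to the lipids was not tested. The call of Postn ended with a pseudocount of 0.1 RPKM, with no filter, without the trend and without line 3, 15 or 18 (limma adjusted p = 0.0508 to 0.122), and without line 6 the list had 4 lower genes.

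**Figure D5:**
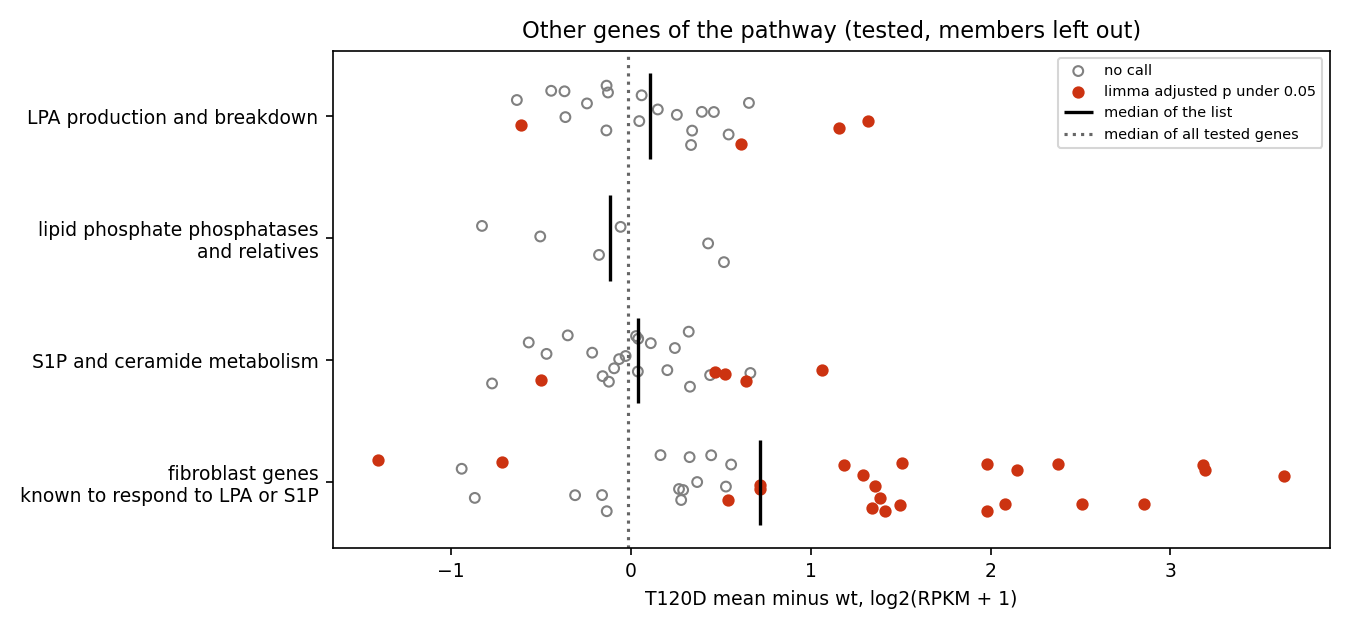
T120D mean minus wt in log2(RPKM + 1) for the tested genes of 4 lists, 1 point per gene, with the 10 described genes left out. Red points are past a limma adjusted p of 0.05, the black bar is the median of the list and the dotted line the median of all tested genes (-0.02), and the list of LPA- and S1P-responsive genes has its median at 0.72.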

How the data were processed

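Messenger RNA was sequenced from 4 T120D lines and 1 wt line. The authors deposited 1 table per line of RPKM, per the file headers. Partek and build mm9 are named in the submitters' processing notes, and a stranded TruSeq mRNA kit in the labels' protocols. Aligner, annotation and strand setting: not given in the sources used here.

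Values were analysed as log2(RPKM + 1). The 10052 genes averaging 1 RPKM or more were tested for the T120D mean minus wt with limma 3.58.1 in R 4.3.3 (eBayes, intensity trend, two-sided, Benjamini-Hochberg over all tested genes, called under 0.05). The spread came from the T120D lines alone (3 residual and 5.99 prior degrees of freedom), so wt is taken to have their variance. Differences on this scale understate those of low genes.

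Reads per line were estimated from genes with 1 annotated transcript, at the depth that put the largest share of those under 20 reads within 0.05 of a whole number (47.5% to 54.2%). That share is too low for a count model. Estimated reads of a gene use the median length of its RefSeq-linked GENCODE transcripts (for Lpar6 the RefSeq gene length, which gave whole reads). The depth estimate and the limma fit were run on simulated data, with outcomes not given here. The simulated wt values had the T120D spread, so the variance taken for wt in the fit was not checked.

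Gene order, overlaps and promoters came from GRCm38, another build than that of the files, and 99.5% of tested genes had a position. Promoter entries matched 8 of the 10 genes, not Enpp2 and Ppap2a. Lists were matched by symbol or RefSeq synonym. Named genes were the 10 genes, up to 6 called genes per list and direction, the receptor genes, the 3 tested neighbours on each side of Enpp2, and the 5 nearest profiles. A few genes outside this rule (Rb1, Skiv2l2, Sphk2, Sgpl1, Ppap2c, Trps1 and the Enpp relatives) were chosen after their values were seen. The 10 genes and the lists were chosen with earlier results of these data known. A further list and 1 gene are not reported here. Alternatives were another pseudocount, filter, variance model and scaling, and leaving out each T120D line.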

Additional observations from a re-analysis of the deposited data

Results flagged for a closer look

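In 46 results checked over the 4 T120D lines, 3 had 1 line far from the others, a gap that chance gives in about 1 of 20 groups. For Enpp2 it was line 3 at 0.144 RPKM, with the others at 0.228 to 0.234, which is 1.0 against 1.7 estimated reads. For Lpcat3 it was line 6 at 9.30 RPKM, with the others at 10.9 to 11.2. For the share of Lpar1 in the LPA receptor sum it was line 3 at 67.5% (67.451), with the others at 70.8% to 71.4%.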

How the results depend on the processing

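All 95 values of the 10 genes under the alternatives kept their direction. A pseudocount of 0.1 RPKM moved those of few reads, to a log2 difference of -5.16 for Enpp2, -0.42 for Lpar2, -1.26 for Lpar4, 0.70 for Lpar6 and 1.31 for Sphk1. Leaving out each T120D line gave -3.30 to -3.27 for Enpp2, -0.91 to -0.80 for Lpar1, -0.85 to -0.56 for Lpar4, 0.77 to 0.99 for Sphk1 (0.765 to 0.989), 0.85 to 0.96 for Ppap2a and -1.10 to -0.99 for Ppap2b. Enpp2, Lpar2, Lpar4, Lpar6 and Sphk1 have no value at a mean of at least 5 RPKM. With the EDG-type receptors only, Lpar1 made up 91.5% of the LPA receptor RPKM in T120D (mean of the lines) and 93.6% in wt.

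With no filter on low values, 434 genes were called higher and 514 lower over all tested genes, and without the intensity trend 455 higher and 361 lower, against 769 and 548. Leaving out a T120D line gave 559 to 799 higher and 400 to 596 lower (400.0 to 596.0). The list of LPA production and breakdown had 1 higher and 2 lower without the filter, 2 lower without the trend, and 0 to 1 lower without a line. S1P and ceramide metabolism had 1 higher without the trend, and 0 lower with a pseudocount of 0.1, without the filter, without the trend, under median scaling and without any 1 line (0 to 0). The list of responsive genes had 1 lower with a pseudocount of 0.1, without the filter, at a mean of at least 5 RPKM and without the trend, and 1 to 4 lower without a line. S1pr1, which was not called, changed sign without line 18 (leaving out each line gave a log2 difference of -0.113 to 0.057, and limma adjusted p = 0.884 without line 18). The cause of these changes was not tested.

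Of the 22 called genes that the naming rule took from the lists and from beside Enpp2, some of which are not reported here, 15 to 21 kept their call under each alternative that tested all of them. No paired analysis was possible because the wt group has 1 line and shares no replicate number with the T120D lines. Depth limits the values of Enpp2, Lpar4 and Sphk1, which rest on fewer than 20 reads in each T120D line.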
